A study of Rattus norvegicus with 27 samples.

Results

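The 10 genes followed here belong to the brain circuits that govern feeding: Agrp, Npy, Pomc, Cartpt, Hcrt, Pmch, Npy1r, Npy2r, Npy5r and Mc4r. They were taken from a rat whole genome array by name: a probe belongs to the set if the gene name of the array design, with case ignored, is 1 of these 10 names, with Cart accepted for Cartpt. This gave 11 probes of the 41012 probes that are not controls, 1 for each gene and 2 for Npy1r. RNA was measured in hippocampus, prefrontal cortex and striatum, and each region of each animal group was represented by 3 pools of 3 rats, 1 pool per array, so that 27 arrays fall into 9 groups.

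All rats were males aged 10 weeks on normal chow. The controls were Wistar rats with an average blood sugar of 7.64 mmol/l. Streptozotocin-treated rats were Wistar rats that received 65 mg/kg of this beta cell toxin by vein 4 weeks before, and their average blood sugar was 26.34 mmol/l, as a model of type 1 diabetes. Goto-Kakizaki rats, a non-obese strain of Wistar origin in which diabetes arises without treatment, had 13.9 mmol/l and served as a model of type 2 diabetes. In this strain the diabetes and the rest of the genetic background cannot be told apart, since no non-diabetic rats of the strain were measured. All 3 regions were taken from the same 9 animals of a group, so the regions of a group are not independent of each other.

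In the arcuate nucleus of the hypothalamus, neurons that make agouti-related peptide and neuropeptide Y drive eating, while neurons that make pro-opiomelanocortin and the cocaine- and amphetamine-regulated transcript peptide curb it. Both act on the melanocortin 4 receptor: a product of pro-opiomelanocortin activates it and agouti-related peptide blocks it. Orexin and melanin-concentrating hormone come from neurons of the lateral hypothalamus and promote eating, and orexin also promotes wakefulness. Neuropeptide Y is also a common transmitter of inhibitory interneurons in cortex, hippocampus and striatum, and its receptors are found outside the hypothalamus as well.

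Values are log2 signals relative to the 75th percentile of the same array, so that a difference of 1 is a 2-fold difference, and they say nothing about the level of 1 gene against another. For a test in a region, 2 of the 3 arrays in 1 or more of the groups had to read the probe well above background, and a difference is called at an adjusted p under 0.05 from limma together with at least a 2-fold change. Of the 11 probes, 10 were tested in every region and Npy2r in the hippocampus and in the comparisons of other regions with it. With 3 arrays a group, precision is limited throughout. In bulk tissue, fewer cells of a type and less RNA per cell cannot be told apart.

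The 75th percentile of the signal lay between 690.3 and 1527, and the share of probes well above background was 67.4% to 75.3% per array. Marker genes followed the labelled regions, and the mean of 10 striatal markers was 3.35 to 3.92 in striatum and at most 0.78 elsewhere, the mean of 7 hippocampal markers was -1.26 to -0.80 in hippocampus and at most -2.08 elsewhere, and the mean of 7 neocortical markers was 0.80 to 1.09 in prefrontal cortex and at most 0.68 elsewhere. Control pools 1 and 3 of the prefrontal cortex stood apart, with a striatal marker mean of 0.32 and 0.78 against -1.24 to -0.78 on the other 7 prefrontal arrays. Pool 2 of the Goto-Kakizaki striatum stood apart as well, with a mean of 10 hypothalamic markers of -1.36 against -3.22 to -2.50 on the other striatal arrays. The hippocampal pools differed in the mean of 7 choroid plexus markers. It was -2.73, -2.79 and 1.23 in control, 1.38, -1.45 and 0.53 in Goto-Kakizaki and -3.03, -2.72 and -2.97 in streptozotocin pools. No slide holds both Goto-Kakizaki and streptozotocin arrays of a region, or hippocampal controls with controls of another region, so those comparisons have no within-slide value. With the slide as a random block (correlation 0.0108) the count of called members was the same in all 18 comparisons.

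Each probe on the array is a strand of 60 bases, and the signal of a gene is the signal of that stretch alone. The probes on which the results turn are printed 5′ to 3′ from the array files. Agrp carries the difference between animal groups, and Npy2r was well above background in the hippocampus alone. Both are given whole, and so is the dimmer probe of Npy1r.
Agrp A_44_P257522: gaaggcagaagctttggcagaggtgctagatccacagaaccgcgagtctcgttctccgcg
Npy2r A_43_P12373: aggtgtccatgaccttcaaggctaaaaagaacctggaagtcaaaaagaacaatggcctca
Npy1r A_44_P442889: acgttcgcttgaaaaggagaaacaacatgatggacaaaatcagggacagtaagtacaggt
For Cartpt, the brighter probe of Npy1r and Npy5r the first 30 bases are shown.
Cartpt A_42_P636627: tagttaattttggcagatgacatcataacc
Npy1r A_44_P166967: tgagagcatttctaactcatactgcataga
Npy5r A_43_P11594: agtagatagctgatttatgttgtacctatg
The longest run of bases that the whole probes of Npy1r share is 7, so they read different stretches of the transcript. Over the 11 probes, G and C made up between 35% and 58.3% of the bases, with Agrp at the upper end.

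Agrp, which encodes the endogenous blocker of the melanocortin receptors, was at a higher level in Goto-Kakizaki pools than in both other animal groups in all 3 regions. In the hippocampus the control pools were at -2.76, -2.83 and -2.46, the Goto-Kakizaki pools at -1.79, -1.79 and -1.73 and the streptozotocin pools at -2.49, -3.20 and -3.10. Prefrontal values were -3.50, -2.96 and -2.60, then -2.11, -2.06 and -2.06, then -3.50, -3.48 and -3.36 in the same order of groups. In the striatum they were -3.49, -3.06 and -3.08, then -2.28, -1.88 and -2.01, then -3.61, -3.72 and -3.80. In each region the 3 Goto-Kakizaki pools lay above all 6 other pools, while control and streptozotocin pools overlapped in hippocampus and prefrontal cortex.

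The Goto-Kakizaki rats exceeded controls in Agrp by 0.91 in hippocampus (standard error 0.193, adjusted p = 0.00511), by 0.94 in prefrontal cortex (adjusted p = 0.00296) and by 1.15 in striatum (adjusted p = 0.000397). These are folds of 1.88, 1.92 and 2.22, so that only the striatal difference passed the 2-fold limit as well. Against streptozotocin-treated rats, Goto-Kakizaki rats were 2.23-fold, 2.58-fold and 3.14-fold higher in hippocampus, prefrontal cortex and striatum (adjusted p = 0.000387, 5.41e-05 and 5.68e-06), and all of these were called. Both comparisons use the same Goto-Kakizaki arrays. Between regions, the Goto-Kakizaki effect differed by 0.03 for prefrontal cortex minus hippocampus, 0.23 for striatum minus hippocampus and 0.21 for striatum minus prefrontal cortex, and none of these was called. Streptozotocin-treated rats differed from controls by -0.24, -0.43 and -0.50 in Agrp, with adjusted p of 0.651, 0.278 and 0.166.

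Agrp was dim on these arrays, with processed signals from 80 to 441, but well above background on all 27. The hypothalamic marker mean was -3.05 to -2.91 in the Goto-Kakizaki hippocampus against -3.25 to -3.16 in controls, -3.48 to -2.67 against -3.23 to -2.73 in the prefrontal cortex, and -3.11 to -1.36 against -3.22 to -2.84 in the striatum. The hypothalamic list holds Gal, whose mRNA the paper reports as raised in the Goto-Kakizaki hippocampus. The part of hypothalamic tissue in the Agrp difference was not tested. Goto-Kakizaki striatum pool 2, the pool with the highest hypothalamic mean, also had the highest Agrp value of its group, -1.88 beside -2.28 and -2.01. Without that pool the striatal difference was 1.06 (adjusted p = 0.0031), which does not test for hypothalamic tissue in the other pools. With another background correction (normexp on the raw spot intensities) the differences from controls fell to 0.76, 0.76 and 0.29 with adjusted p of 0.938, 0.582 and 0.639, and no Agrp difference in any animal comparison was called. Goto-Kakizaki and control arrays share slide 2 in the hippocampus, where the difference between 1 Goto-Kakizaki and 2 control arrays was 0.82, and slide 4 in the striatum, where the difference between 3 Goto-Kakizaki arrays and 1 control array was 1.43. That control array had the lowest Agrp value of the striatal controls, and with so few arrays these are values with no test. No slide holds both groups of prefrontal arrays.

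Ordered by mean, Agrp was highest in the Goto-Kakizaki hippocampus, followed by the striatum and the prefrontal cortex of the same strain, which overlapped each other. The remaining 6 groups followed from control hippocampus down to streptozotocin striatum, and 5 of the 8 neighbouring pairs in the whole order overlapped. Over the 27 arrays the genes with the most similar pattern to Agrp, of 12422 genes compared, were Pla2g7 (Pearson r = 0.909), Pigl (0.895) and Chrne (0.894). These points share arrays and scaling, and the values are a description.

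**Figure D1:**
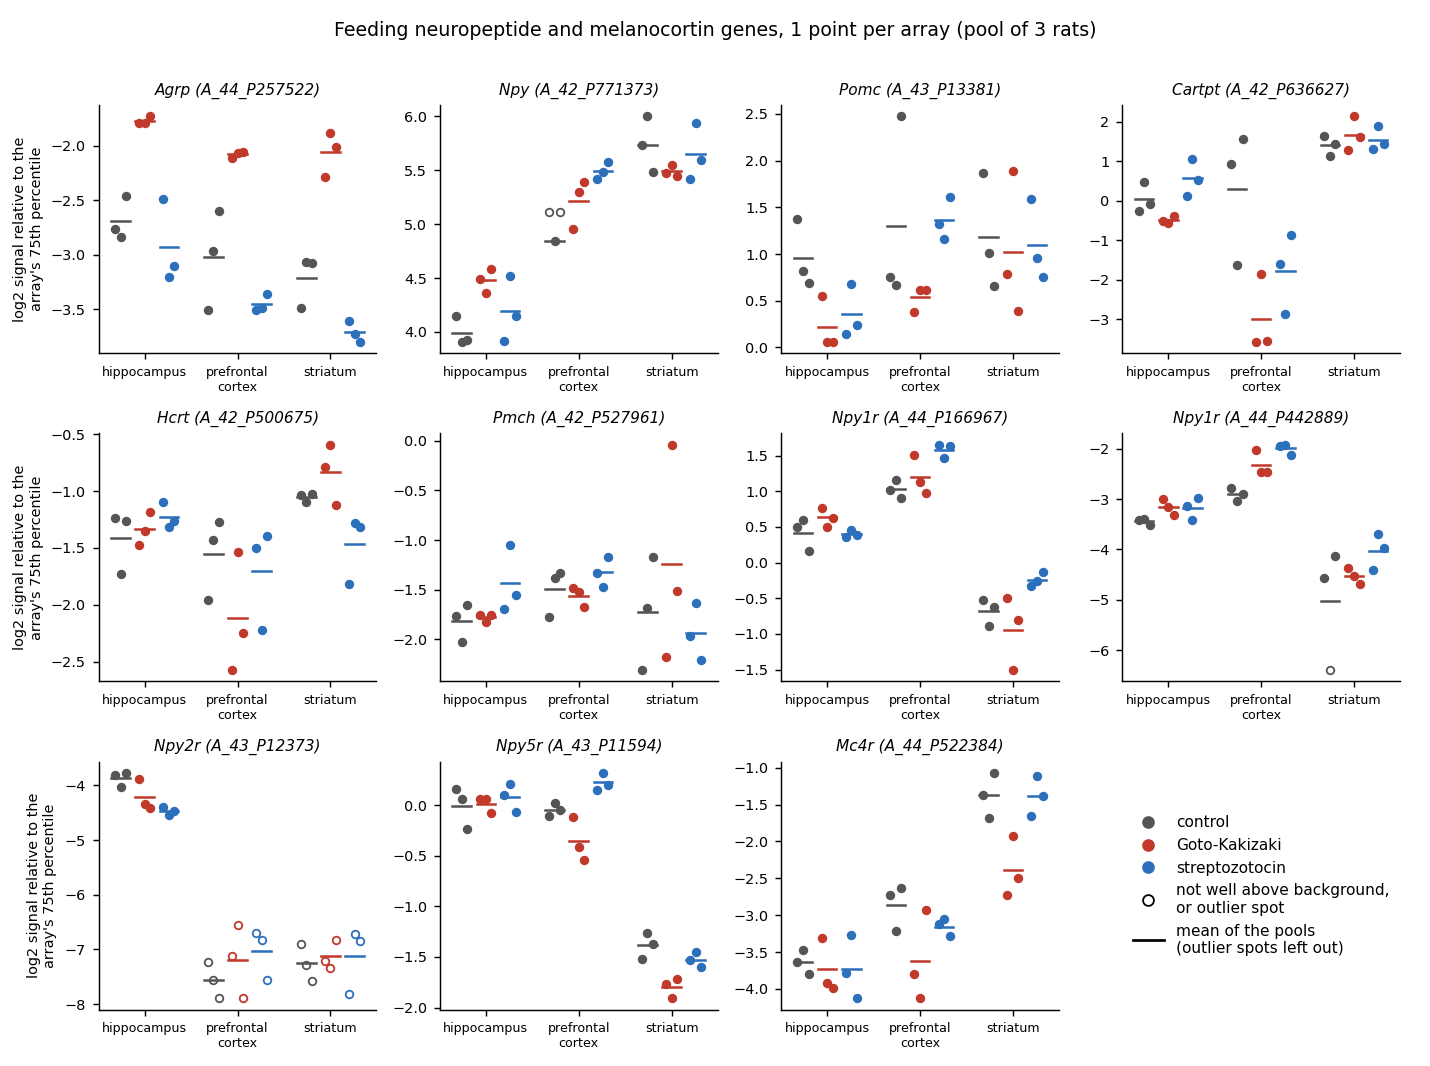
Each panel plots 1 probe, with the log2 signal relative to the 75th percentile of the array on the vertical axis, 1 point per array and a line for the mean of the pools, for controls (grey), Goto-Kakizaki rats (red) and streptozotocin-treated rats (blue) in the 3 regions. In the Agrp panel the red points lie above all other points of their region, at -2.28 or higher. In the Npy2r panel the points outside the hippocampus are open because they were not well above background.

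Npy, which encodes neuropeptide Y, was called between regions and in no comparison of animal groups. In the hippocampus its values were 4.15, 3.91 and 3.92 for control, 4.49, 4.36 and 4.58 for Goto-Kakizaki and 3.91, 4.52 and 4.15 for streptozotocin pools. Prefrontal control pool 2 gave 4.85, and the spots of pools 1 and 3, both at 5.11, were marked as outliers and left out of the fit, so that the control group rests on 1 array. The Goto-Kakizaki pools there were at 4.96, 5.30 and 5.40 and the streptozotocin pools at 5.42, 5.49 and 5.58. In the striatum the values were 5.73, 6.00 and 5.48 for control, 5.47, 5.55 and 5.45 for Goto-Kakizaki and 5.42, 5.94 and 5.59 for streptozotocin pools. All striatal pools were above all hippocampal pools.

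In controls, striatal Npy exceeded hippocampal Npy by 1.74 (standard error 0.167, adjusted p = 1.49e-07), a 3.35-fold difference that was called. The prefrontal cortex exceeded the hippocampus by 0.85 (adjusted p = 0.017), which did not reach 2-fold, and with the outlier spots kept the difference was 1.03 and was called. The spots kept there are those of control pools 1 and 3, whose striatal markers stood apart, and the part of striatal tissue in the difference was not tested. The Goto-Kakizaki hippocampus lay above the control hippocampus without overlap, but the difference of 0.48 had an adjusted p of 0.116. The Goto-Kakizaki effect on Npy differed by -0.73 between striatum and hippocampus (standard error 0.236), with an unadjusted p of 0.00599 and an adjusted p of 0.12. Prefrontal Npy of streptozotocin-treated rats differed from the single control array by 0.65 (adjusted p = 0.161).

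Pomc, the precursor of the melanocortins, was measured well above background on all arrays and was not called in any comparison. In the hippocampus the values were 1.38, 0.82 and 0.69 for control, 0.55, 0.06 and 0.06 for Goto-Kakizaki and 0.15, 0.68 and 0.24 for streptozotocin pools. Both diabetic groups lay below the controls without overlap there, with differences of -0.74 (95% interval -1.60 to 0.12, adjusted p = 0.429) in Goto-Kakizaki and -0.61 (adjusted p = 0.572) in streptozotocin-treated rats. Prefrontal controls were at 0.76, 0.67 and 2.47 and Goto-Kakizaki rats at 0.38, 0.62 and 0.61. The streptozotocin pools were at 1.33, 1.16 and 1.62. The mean of 5 pituitary markers on the same arrays was -4.43, -5.17 and -3.75 in controls and -5.15, -4.57 and -5.38 in Goto-Kakizaki rats. In streptozotocin-treated rats it was -4.41, -5.23 and -3.39. In controls and in streptozotocin-treated rats the pool with the highest Pomc also had the highest pituitary mean. Goto-Kakizaki pools 2 and 3 were nearly equal in Pomc, at 0.62 and 0.61, with pituitary means of -4.57 and -5.38. Across the groups Pomc was highest in control pool 3 and the pituitary mean in streptozotocin pool 3. The part of pituitary tissue in the Pomc values was not tested.

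Cartpt, which encodes the cocaine- and amphetamine-regulated transcript peptide, showed the widest range of group means in the set, and in the prefrontal cortex it was highest on control pools 1 and 3, where the striatal markers were highest as well. Prefrontal control pools were at 0.93, -1.63 and 1.57, Goto-Kakizaki pools at -3.57, -1.84 and -3.53 and streptozotocin pools at -1.59, -2.85 and -0.87. In the hippocampus they were -0.26, 0.48 and -0.08, then -0.52, -0.57 and -0.37, then 0.13, 1.06 and 0.52. In the striatum they were 1.64, 1.14 and 1.44, then 1.27, 2.13 and 1.61, then 1.32, 1.89 and 1.43. Control pools 1 and 3 of the prefrontal cortex were high and control pool 2 lay among the streptozotocin pools and near the highest Goto-Kakizaki pool.

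Prefrontal Cartpt was 9.67-fold lower in Goto-Kakizaki rats than in controls, a log2 difference of -3.27 (standard error 0.604, adjusted p = 0.00116) that was called, and the pools did not overlap. In streptozotocin-treated rats the difference was -2.07 (adjusted p = 0.0704) and the pools overlapped. The mean of the 10 striatal markers on these arrays was 0.32, -1.10 and 0.78 for control, -1.24, -0.90 and -0.81 for Goto-Kakizaki and -0.97, -1.01 and -0.78 for streptozotocin pools. Among the other 7 prefrontal arrays, with marker means of only -1.24 to -0.78, the order of Cartpt was not that of the markers. With so narrow a range that order says little about control pools 1 and 3. The part of striatal tissue in the Cartpt difference was not tested. Of the 10 markers, 9 were highest on control pools 1 and 3 (for Penk the spot of pool 1 was marked as an outlier and left out), and 5 were called lower in Goto-Kakizaki than in control prefrontal cortex: Drd1 (-1.32), Adora2a (-1.64), Rgs9 (-1.62), Gpr6 (-1.54) and Pde10a (-2.28). With control pool 2 as the only prefrontal control the Goto-Kakizaki difference in Cartpt was -1.35 and the streptozotocin difference was -0.15. The latter sets this pool, on slide 5, against streptozotocin pools of slides 5, 6 and 7. Streptozotocin and control pools of equal number shared a slide, and on each slide the streptozotocin pool was lower. On slide 5 the streptozotocin pool was at -2.85 and the control pool at -1.63. The Goto-Kakizaki call was lost when the spread was taken from the prefrontal arrays alone (adjusted p = 0.0718). No slide holds both Goto-Kakizaki and control prefrontal arrays.

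For Cartpt the Goto-Kakizaki effect differed by 3.54 between striatum and prefrontal cortex (standard error 0.854, unadjusted p = 0.000476, adjusted p = 0.0966). In the hippocampus the Goto-Kakizaki pools lay below the controls without overlap, with a difference of -0.54 (adjusted p = 0.786). In controls the striatum was above the hippocampus by 1.36 (adjusted p = 0.0987) and above the prefrontal cortex by 1.11 (adjusted p = 0.203), and against prefrontal control pool 2 alone by 3.03 (adjusted p = 0.00213). Over the 27 arrays the genes with the most similar pattern were Mybpc2 (Pearson r = 0.909), Btg1 (0.893) and Gsn (0.873), given as a description.

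**Figure D2:**
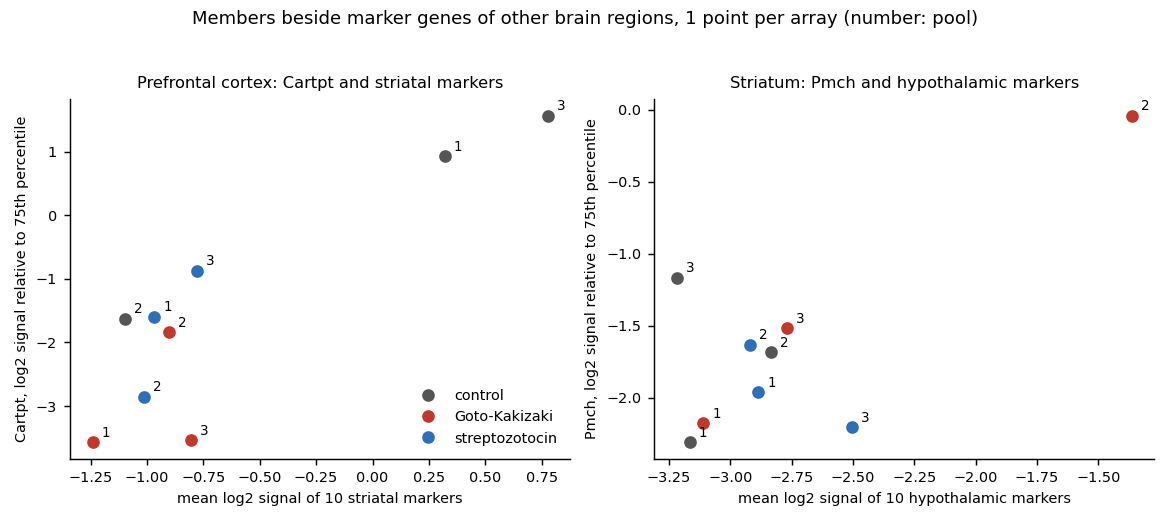
The left panel plots Cartpt against the mean log2 signal of 10 striatal markers on the 9 prefrontal arrays, and the right panel plots Pmch against the mean of 10 hypothalamic markers on the 9 striatal arrays, with 1 point per array and the pool number beside it. Control pools 1 and 3 stand at the upper right of the left panel with marker means of 0.32 and 0.78, and Goto-Kakizaki pool 2 stands at the upper right of the right panel with a marker mean of -1.36.

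Hcrt, the orexin precursor, and Pmch, the precursor of melanin-concentrating hormone, were not called in any comparison. In the hippocampus Hcrt lay between -1.73 and -1.10 over all 9 arrays. Prefrontal Hcrt was -1.96, -1.43 and -1.27 in controls and -2.58, -1.54 and -2.25 in Goto-Kakizaki rats, a difference of -0.57 (adjusted p = 0.178) with overlapping pools. In the striatum it was -1.03, -1.09 and -1.02 for control, -0.79, -0.59 and -1.12 for Goto-Kakizaki and -1.82, -1.28 and -1.31 for streptozotocin pools. The streptozotocin pools were the lowest of the striatum without overlap, and Goto-Kakizaki rats exceeded them by 0.64 (adjusted p = 0.0792).

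Pmch in the striatum was -2.31, -1.68 and -1.17 for control, -2.18, -0.04 and -1.52 for Goto-Kakizaki and -1.96, -1.63 and -2.20 for streptozotocin pools. The value of -0.04 belongs to Goto-Kakizaki pool 2. In that pool Avp and Oxt, which encode vasopressin and oxytocin, were at 5.17 and 2.66, while the other striatal arrays reached at most -0.50 and -1.57, and 5 of the 10 hypothalamic markers were highest there. Cartpt at 2.13 also had its highest striatal value in this pool. Pomc was at 1.89 there, hardly above the 1.87 of a control pool, and a streptozotocin pool reached 1.58. The part of other tissue in these values was not tested. In the hippocampus and the prefrontal cortex Pmch lay between -2.03 and -1.05 and between -1.78 and -1.18.

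Among the receptors, most called differences lay between regions. Npy1r, a receptor through which neuropeptide Y stimulates feeding, gave in controls 0.50, 0.60 and 0.16 in hippocampus, 1.02, 1.16 and 0.91 in the prefrontal cortex and -0.53, -0.89 and -0.62 in the striatum with its brighter probe. The dimmer probe gave -3.41, -3.40 and -3.52, then -2.78, -3.04 and -2.89, then -4.56, -6.40 and -4.13 in the same order, and the spot at -6.40 was not well above background. With both probes the striatum was lowest and the prefrontal cortex highest, and the regions did not overlap.

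With the brighter Npy1r probe the striatum differed from the hippocampus by -1.10 (2.14-fold lower, adjusted p = 0.000129) and from the prefrontal cortex by -1.71 (3.26-fold lower, adjusted p = 4.94e-07), and both were called. With the dimmer probe the differences were -1.58 (adjusted p = 0.00135) and -2.12 (adjusted p = 7.42e-05), also called. Without striatal control pool 2 the difference between striatum and hippocampus was -0.99 with the brighter and -0.90 with the dimmer probe, just under 2-fold. With the normexp correction the dimmer probe turned to 0.36 against the hippocampus (adjusted p = 0.539) and 0.054 against the prefrontal cortex (adjusted p = 0.932), and the brighter one was at -0.83 against the hippocampus. On slides 5 and 6, which hold both striatal and prefrontal controls, the brighter probe differed by -2.05 and -1.52 and the dimmer probe by -3.36 and -1.24. The prefrontal cortex exceeded the hippocampus by 0.61 with the brighter probe (adjusted p = 0.0313) and by 0.54 with the dimmer probe (adjusted p = 0.356).

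On the prefrontal arrays of streptozotocin-treated rats the brighter Npy1r probe was at 1.65, 1.46 and 1.64 and the dimmer one at -1.94, -1.92 and -2.12, above all controls in both. The differences were 0.56 and 0.91 with adjusted p of 0.124 and 0.178, so neither passed the test. In the striatum the streptozotocin pools were at -0.33, -0.26 and -0.13 with the brighter probe, above all controls by 0.44 on average (adjusted p = 0.22). Goto-Kakizaki rats, at -0.50, -1.51 and -0.81, lay below them with a difference of -0.70 (adjusted p = 0.0187), less than 2-fold.

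Npy2r, mostly a presynaptic receptor that limits transmitter release, was well above background on the 9 hippocampal arrays and on 0 of the 18 arrays of the other regions. The hippocampal values were -3.82, -4.03 and -3.77 for control, -3.89, -4.33 and -4.41 for Goto-Kakizaki and -4.39, -4.54 and -4.47 for streptozotocin pools. Elsewhere the probe read between -7.90 and -6.56, below what the arrays could measure. Against the lowest signal well above background, the control hippocampus was at least 3.68-fold above the prefrontal cortex and at least 3.32-fold above the striatum. These bounds carry no test. Both differences were called by limma (adjusted p = 2.61e-08 and 3.25e-08) on the dim signals themselves, which outside the hippocampus were not well above background. With the normexp correction these differences were not called, at -1.20 for the prefrontal cortex (adjusted p = 0.454) and 0.020 for the striatum (adjusted p = 0.983). Streptozotocin pools in the hippocampus lay below all controls, with a difference of -0.59 and an adjusted p of 0.409.

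Npy5r, another receptor linked to feeding, lies next to Npy1r in the rat genome. In the GRCr8 gene table of RefSeq, Npy1r is on chromosome 16 from 27804416 to 27814070 on the minus strand and Npy5r from 27822055 to 27830012 on the plus strand, with 7984 bases between them. Its control values were 0.16, 0.06 and -0.23 in hippocampus, -0.11, 0.02 and -0.05 in the prefrontal cortex and -1.52, -1.27 and -1.38 in the striatum. The striatum was below the other regions without overlap, while hippocampus and prefrontal cortex overlapped.

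Striatal Npy5r was 2.61-fold below the hippocampus (adjusted p = 1.25e-08) and 2.53-fold below the prefrontal cortex (adjusted p = 2.4e-08), and the log2 difference from the prefrontal cortex was -1.29 and -1.33 on slides 5 and 6. In the striatum the Goto-Kakizaki pools, at -1.77, -1.91 and -1.72, lay below all controls with a difference of -0.41 (adjusted p = 0.0251), less than 2-fold. On the prefrontal arrays they were at -0.12, -0.41 and -0.55 against 0.15, 0.32 and 0.20 in streptozotocin-treated rats, a difference of -0.58 (adjusted p = 0.00219) without overlap. The effect of the Goto-Kakizaki strain differed by -0.43 between striatum and hippocampus (unadjusted p = 0.0181, adjusted p = 0.185).

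Mc4r, the receptor on which the melanocortin peptides and agouti-related peptide act, was highest in the striatum and lower there in Goto-Kakizaki rats. The striatal values were -1.38, -1.68 and -1.07 for control, -2.73, -1.93 and -2.50 for Goto-Kakizaki and -1.66, -1.11 and -1.38 for streptozotocin pools. Prefrontal values were -2.73, -3.21 and -2.63, then -3.80, -4.13 and -2.93, then -3.12, -3.05 and -3.29. In the hippocampus they were -3.63, -3.47 and -3.80, then -3.30, -3.92 and -3.98, then -3.79, -3.26 and -4.12. The Goto-Kakizaki pools of the striatum lay below all other striatal pools, while in the other regions the groups overlapped.

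In controls, striatal Mc4r was 4.77-fold above the hippocampus (log2 difference 2.26, adjusted p = 2.92e-06) and 2.79-fold above the prefrontal cortex (1.48, adjusted p = 0.000447). On slides 5 and 6, with 1 array of each region, the latter difference was 1.53 and 1.56, and with prefrontal control pool 2 alone it was 1.83. In the striatum, Goto-Kakizaki rats differed from controls by -1.01 (standard error 0.284, adjusted p = 0.0219) and were also lower than streptozotocin-treated rats (adjusted p = 0.024), both just at the 2-fold limit, and both were called. Streptozotocin-treated rats differed from controls by -0.01 (95% interval -0.60 to 0.59). The striatal marker mean was 3.87, 3.92 and 3.89 for control, 3.63, 3.73 and 3.35 for Goto-Kakizaki and 3.88, 3.83 and 3.89 for streptozotocin pools, with 1 of 10 markers called lower against controls (Pde10a, -1.83), and its part in the Mc4r difference was not tested.

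The call of Mc4r against controls was lost without Goto-Kakizaki pool 1 (-0.84, adjusted p = 0.0752), without Goto-Kakizaki pool 3 (-0.95) or without control pool 3 (-0.86). Within slide 4, which holds all Goto-Kakizaki arrays and 1 control array, the difference was -1.01, a value with no test. Against streptozotocin-treated rats it was lost without Goto-Kakizaki pools 1 or 3 (-0.83 and -0.95) and without streptozotocin pool 2 (-0.87) or pool 3, where the adjusted p was 0.0641. With the normexp correction neither striatal difference in Mc4r was called, at -1.06 against controls (adjusted p = 0.0533) and -0.77 against streptozotocin-treated rats (adjusted p = 0.188). The prefrontal difference of Goto-Kakizaki rats from controls was -0.76 (adjusted p = 0.106), and without Goto-Kakizaki pool 3 it was -1.11 (adjusted p = 0.0206). Against prefrontal control pool 2 alone, the control pool without the raised striatal markers, it was -0.41 (adjusted p = 0.709). The Goto-Kakizaki effect differed between striatum and hippocampus by -0.91 (unadjusted p = 0.0353, adjusted p = 0.245). Genes with the most similar pattern over the 27 arrays were Cbr3 (Pearson r = 0.936), Penk (0.916) and Coch (0.914), given as a description.

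**Figure D3:**
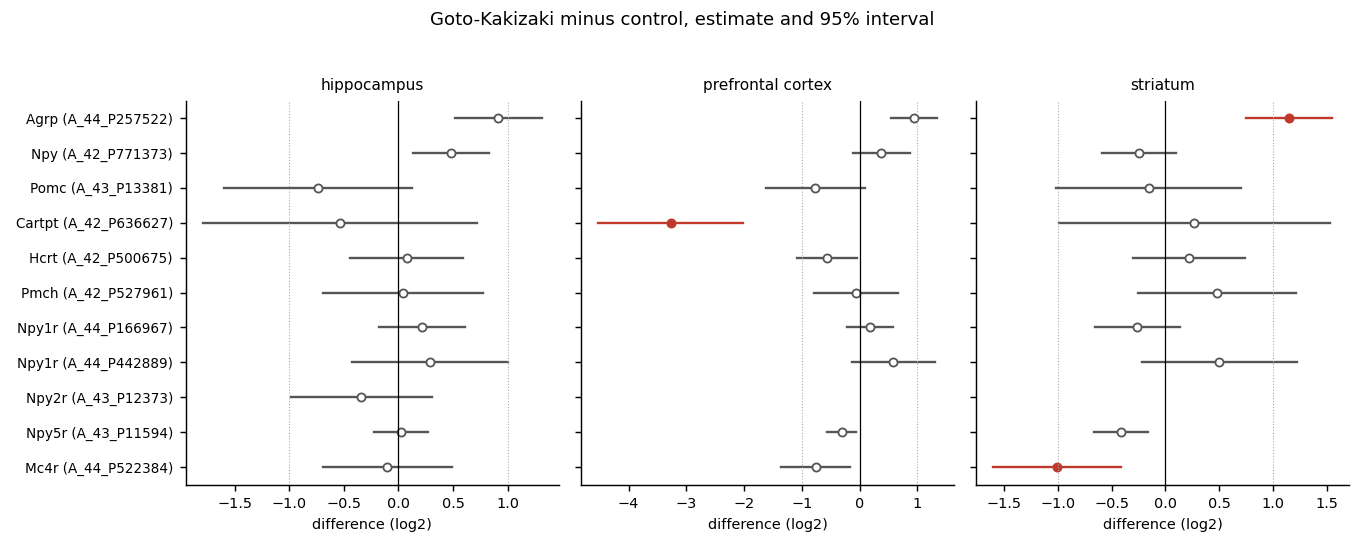
Difference of Goto-Kakizaki minus control rats in log2 signal (horizontal axis) for each probe in the 3 regions, as the limma estimate with its 95% interval, with called differences in red and dotted lines at a 2-fold change. Agrp is to the right of 0 in every region (0.91, 0.94 and 1.15), Cartpt is at -3.27 in the prefrontal cortex and Mc4r at -1.01 in the striatum.

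Counted over the set, Goto-Kakizaki rats against controls gave 0 of 11 calls in the hippocampus, where 1.92% of all tested probes were called, and by limma 2 of the 11 had an unadjusted p under 0.05, as had 15.7% of all tested probes. The prefrontal cortex gave 1 call of 10 (Cartpt), with 2.49% of all probes called, and in the striatum there were 2 of 10 (Agrp and Mc4r), with 3.09% called. An unadjusted p under 0.05 was reached by 5 of 10 and 3 of 10 members there, against 21.9% and 27.7% of all probes. The groups did not overlap for 5, 6 and 3 probes of hippocampus, prefrontal cortex and striatum, where 44.8%, 26.9% and 22.8% of all tested probes did not overlap. The prefrontal 6 include Npy, whose control group rests on 1 array. The outlier spots of Npy in controls, left out of the fit, lay within the Goto-Kakizaki range. Later counts of probes without overlap that use prefrontal controls also include Npy with that 1 array. The median difference of the members was 0.04, -0.19 and 0.03, against -0.04, 0.01 and 0.02 over all tested probes.

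Streptozotocin-treated rats against controls gave 0 calls in every region, where 0.639%, 0.98% and 0.866% of all probes were called in hippocampus, prefrontal cortex and striatum. By limma 0, 6 and 3 members had an unadjusted p under 0.05, against 14.2%, 15.4% and 18.1% of all probes, and 2, 4 and 3 members did not overlap, against 30.1%, 27.5% and 22.7% of all probes. Goto-Kakizaki against streptozotocin-treated rats gave 1 of 11, 1 of 10 and 2 of 10 calls, with 2.75%, 3.53% and 4.94% of all probes called, and 4, 5 and 5 members did not overlap, against 39.9%, 34.4% and 38.8% of all probes. Of the differences of an effect between regions, 0 members were called in any of the 6 comparisons, by limma. An unadjusted p under 0.05 was reached by 1, 3 and 3 members for the Goto-Kakizaki effect (11.3%, 17.6% and 12.1% of all probes) and by 3, 0 and 3 for the streptozotocin effect (6.84%, 16.6% and 8.45%), in the order prefrontal cortex minus hippocampus, striatum minus hippocampus and striatum minus prefrontal cortex. Of all probes, 0.181% were called for the Goto-Kakizaki effect in prefrontal cortex minus hippocampus, 0.361% in striatum minus hippocampus and 0.129% in striatum minus prefrontal cortex. For the streptozotocin effect 0.769% were called in striatum minus hippocampus and 0% in the other 2 comparisons.

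Between regions of control rats, 6 of 11 members were called for striatum against hippocampus (8.96% of all probes), 4 of 10 for striatum against prefrontal cortex (8.79%) and 1 of 11 for prefrontal cortex against hippocampus (5.14%). Npy and Mc4r were higher in the striatum than in the hippocampus, and Npy2r, Npy5r and both probes of Npy1r were lower. Against the prefrontal cortex the striatum was higher in Mc4r and lower in Npy5r and both probes of Npy1r. The 1 call for prefrontal cortex against hippocampus was Npy2r, lower in the prefrontal cortex. Both calls of Npy2r use signals that were not well above background outside the hippocampus. In these 3 comparisons 9, 6 and 5 members did not overlap, against 45%, 35.8% and 41.8% of all probes.

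**Figure D4:**
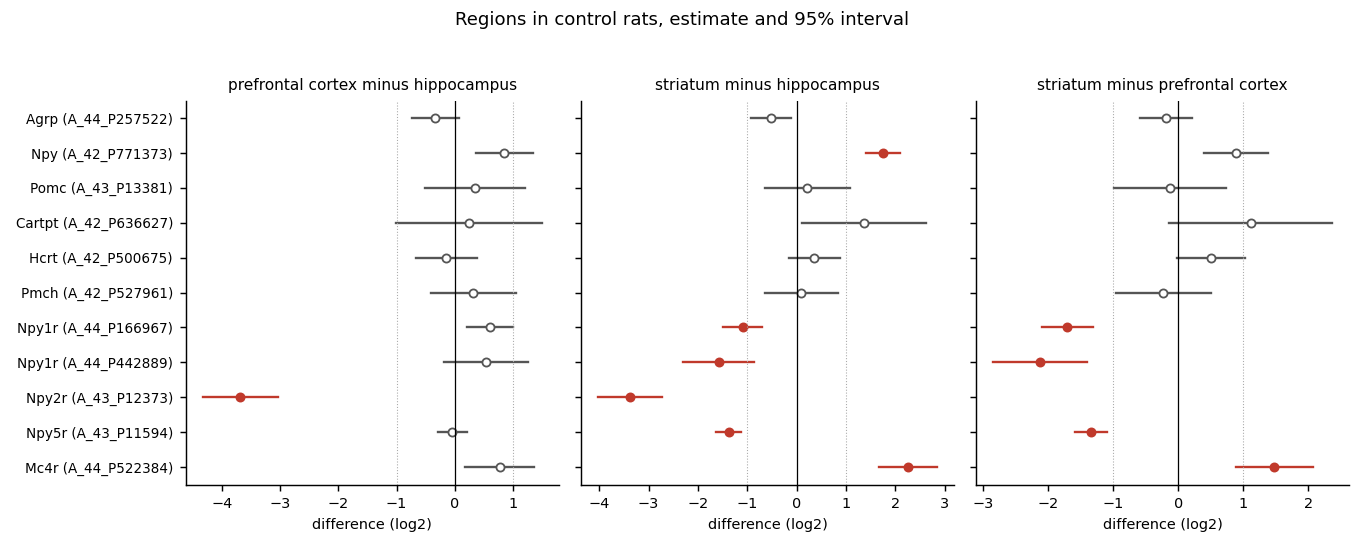
Differences between regions in control rats in log2 signal (horizontal axis) for each probe, as the limma estimate with its 95% interval, with called differences in red and dotted lines at a 2-fold change. The receptors Npy1r and Npy5r are to the left of 0 for striatum against both other regions, Mc4r is to the right at 2.26 and 1.48, and the Npy2r estimates use signals that were not well above background outside the hippocampus.

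Other genes of the same pathways were counted from a list of 44, of which 42 had a probe and 34 were tested in each comparison within a region. Against controls, 0 of the 34 were called in Goto-Kakizaki rats in any region. The smallest p belonged to Mrap, an accessory protein of melanocortin receptors, in the hippocampus (-0.71, adjusted p = 0.123) and the prefrontal cortex (-0.97, adjusted p = 0.0182), and to Pcsk1n, an inhibitor of a precursor-cleaving protease, in the striatum (0.85, adjusted p = 0.00572). In streptozotocin-treated rats 1 was called: Pyy, the gut hormone of the neuropeptide Y family, fell by 1.16 in the prefrontal cortex (adjusted p = 0.00395). Cckbr, a cholecystokinin receptor, differed by -0.99 in the hippocampus (adjusted p = 0.00666), just short of 2-fold, and Pyy by -0.69 in the striatum (adjusted p = 0.0711).

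Between the diabetic models, 3 of the 34 were called in hippocampus, 1 in prefrontal cortex and 4 in striatum. In the Goto-Kakizaki hippocampus Cckbr was higher by 1.05, Lepr, the leptin receptor, higher by 1.46 than in streptozotocin-treated rats, while Mrap differed by -1.14. The mean of 7 choroid plexus markers was -1.45 to 1.38 there against -3.03 to -2.72, and its part in the Lepr difference was not tested. Prefrontal Mrap differed by -1.09. In the striatum Pyy was higher in Goto-Kakizaki rats by 1.36 and Hcrtr1, an orexin receptor, by 1.23. Ghrl, the ghrelin precursor, was at least 5.38-fold higher, and Nmur2, a neuromedin U receptor, was at least 1.08-fold lower, a bound short of 2-fold. Bounds are given since neither probe was well above background in the dimmer group. The calls of both genes by limma (adjusted p = 0.0148 and 0.0351) use those dim signals.

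In control rats 8 of 35 of these genes were called, 6 higher and 2 lower in the prefrontal cortex than in the hippocampus, among them Cckbr (2.04), Crh (1.88), Crhr1 (1.41) and Nts (-4.69), the genes of a cholecystokinin receptor, of corticotropin-releasing hormone and its receptor, and of neurotensin. In the striatum 10 of 36 were called against the hippocampus, 4 higher and 6 lower. Nmu, neuromedin U, was at least 8.12-fold higher, and Bdnf (-2.58), Pcsk1 (-1.29), a protease that cleaves peptide precursors, and Hcrtr2 (-1.91), the other orexin receptor, were lower. Against the prefrontal cortex 14 of 35 were called in the striatum, 4 higher and 10 lower, the latter led by Pcsk1 (-1.95), Crh (-2.64), Bdnf (-2.42) and Cck (-2.23).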

How the data were processed

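RNA from 27 pools was hybridised with a single dye to 60-base oligonucleotide arrays. The authors extracted the spots with Agilent Feature Extraction 9.1 and deposited the processed signal, an intensity after background subtraction and without scaling between arrays. Their value table holds the same intensity. The raw mean and local background intensities that they deposited served a single alternative. The authors' own analysis was made in GeneSpring, relative to the median of the controls. They followed it with quantitative PCR on the same RNA samples, and the paper lists Agrp among the hippocampal genes that passed it.

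Here each deposited intensity was divided by the 75th percentile of its array over the 41012 non-control probes and put on the log2 scale. Spots that the extraction software marked as outliers (2635 values) were dropped. A model with 9 group means (18 residual and 2.56 prior degrees of freedom) was fitted to all probes with limma 3.58.1 in R 4.3.3. Adjustment of p-values followed Benjamini and Hochberg over all probes of a comparison. Scripts were tested on simulated data, and Python 3.11.15, numpy 2.4.6, pandas 2.3.3 and matplotlib 3.10.9 were used for reading and figures. The p-values measure the spread between pools of different animals of a group, while the fit takes the regions as independent. Bounds ("at least") compare the brighter group's mean with, per array of the dimmer group, the higher of the probe's signal and the lowest signal well above background.

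Probe names were updated through the GRCr8 gene table of RefSeq (10735 probes by accession, 5577 by symbol, 3761 by synonym). The build behind the array design is not given in the sources used here. Every member probe is named, with up to 4 called genes of the pathway list per comparison (or the 1 with the smallest p), the probe with the highest mean standing for a gene, and the 3 genes most like each member called against controls. The members and lists were chosen with earlier results of these data known. Marker lists of striatum, hypothalamus, thalamus, hippocampus, neocortex, olfactory bulb, interneurons, choroid plexus and pituitary were averaged per array. Thalamic markers lay between -2.06 and -0.98, olfactory bulb markers between -4.66 and -3.05 and interneuron markers between 0.38 and 1.44 over all arrays. Choroid plexus markers had a wider range, from -5.42 to 1.38.

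Equal replicate numbers deviated together in streptozotocin against control prefrontal cortex (correlations of 0.492, 0.470 and 0.710), where all 3 pairs share slides, and in controls of striatum and prefrontal cortex for pools 2 and 3, which share slides (0.540 and 0.590), but not pool 1 (-0.179). In no other comparison did all 3 pairs exceed 0.1. Alternatives were the 50th percentile, quantile normalization, the authors' value table, normexp (offset 50), outlier spots kept, the filter on dim probes stricter or absent, the spread from fewer groups, the methods' t-test, calls without the fold limit, the replicate number or the slide as a block, single slides, array weights, and leaving out each pool. The fit with prefrontal control pool 2 alone was chosen after seeing the data.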

Additional observations from a re-analysis of the deposited data

How the results depend on the processing

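The counts of member probes called moved with the processing as follows. In the hippocampus, for Goto-Kakizaki rats against controls, the count of 0 became 1 with the 50th percentile and 1 without a fold threshold, both times Agrp. In the prefrontal cortex the count of 1 became 2 with the 50th percentile, 2 with quantile normalization, 2 without a fold threshold and 3 with array weights, and 0 with the spread from the region or from the groups alone, 0 with the methods' t-test, adjusted or not, and 0 with control pool 2 alone. In the striatum the count of 2 became 1 with the region fitted alone, 1 within slide 4 (a single control array), and 0 with the groups alone, normexp or the adjusted t-test. For Goto-Kakizaki against streptozotocin-treated rats the counts of 1, 1 and 2 in hippocampus, prefrontal cortex and striatum all became 0 with normexp and 0 with the adjusted t-test. They became 2 in the hippocampus with the region or the groups fitted alone, 2 in the prefrontal cortex without a fold threshold and 1 in the striatum with the region alone. For prefrontal cortex against hippocampus the count of 1 became 0 with normexp, 2 with outlier spots kept and 3 without a fold threshold. For striatum against hippocampus the count of 6 became 3 with normexp, and for striatum against prefrontal cortex the count of 4 became 2 with the adjusted t-test. With array weights the count for streptozotocin against control prefrontal cortex was 1, and for the Goto-Kakizaki effect it was 3 for prefrontal cortex minus hippocampus and 1 for striatum minus hippocampus, in place of 0.

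Leaving out 1 pool at a time, the count for Goto-Kakizaki rats against controls ranged from 0 to 1 in the hippocampus, from 1 to 2 in the prefrontal cortex and from 1 to 2 in the striatum, and against streptozotocin-treated rats from 1 to 2 in the striatum. It ranged from 0 to 1 for streptozotocin against control rats in prefrontal cortex and striatum, and from 0 to 1 for the Goto-Kakizaki effect in prefrontal cortex minus hippocampus and in striatum minus prefrontal cortex and for the streptozotocin effect in prefrontal cortex minus hippocampus. Without hippocampal control pool 3 the Agrp difference was 1.03, and without prefrontal control pool 3 it was 1.15, both called. That hippocampal pool had a choroid plexus marker mean of 1.23 against -2.73 and -2.79 in the other hippocampal controls. The part of choroid plexus in the Agrp difference was not tested. Without prefrontal control pool 2 the streptozotocin difference in Cartpt was -3.03 (adjusted p = 0.00245) and called. Without striatal control pool 3 the streptozotocin difference in the dimmer Npy1r probe was 1.45 (adjusted p = 0.0245).

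With normexp 3 differences changed sign: striatum against hippocampus in Npy2r (0.020, adjusted p = 0.983) and in the dimmer probe of Npy1r (0.36, adjusted p = 0.539), and striatum against prefrontal cortex in that probe (0.054, adjusted p = 0.932). The cause was not tested. With the replicate number as a block every count was that of the fit without it, 1 for Goto-Kakizaki against control prefrontal cortex and 2 for the striatum among them. The value table, the filters and the slide block moved no count by over 1.5 times. The 50th percentile shifted the median of all genes by up to 0.101.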
